A study of Mus musculus with 2 samples.

Results

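Solute carrier genes were followed in 1 wild-type and 1 Setd2 knockout library of mouse embryonic stem cells. The genes were chosen by name, as every symbol made of Slc, a family number, the letter a and a member number, without the mitochondrial Slc25 carriers. This gave 240 genes of 17817 in all, from 45 families. A further 8 symbols carry a suffix after the pattern (Slc4a1ap, Slc9a3r1, Slc9a3r2, Slc7a6os, Slc5a4a, Slc5a4b, Slc6a20a and Slc39a1-ps) and were not counted as members. Symbols with another letter in place of the a, among them most Slc35 genes and the Slco genes, fall outside the choice as well.

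Solute carriers are membrane proteins that move small molecules across the plasma membrane and the membranes of organelles, as facilitators, exchangers or co-transporters driven by ion gradients. A family number groups carriers by protein similarity, and most families share a class of substrate, such as glucose, amino acids, zinc or bicarbonate. Embryonic stem cells divide quickly and rely on glycolysis and on imported amino acids, so they carry high levels of a few glucose and amino acid carriers.

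Both libraries came from embryonic stem cells of mixed strain 129SV/C57BL/6, at passages 10 to 12, with no treatment. One was wild type and the other was labelled a knockout of Setd2, a histone methyltransferase that acts on histone H3 over transcribed genes. Cells were grown on feeder cells, freed of most of them by 0.5 h on gelatin, passaged onto fresh gelatin and collected 2 days later. The sources used here do not say how Setd2 was disrupted or whether each genotype was 1 clone. Each genotype had 1 library, so no difference below has a replicate check and no p-value was computed.

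Levels are given in CPM, a gene's read equivalents per 1000000 of those over all genes, where a read equivalent is 76 sequenced bases that fell on the gene. The libraries held 56129838 and 52041677 read equivalents, so that 1 CPM stood for 56.13 and 52.04 of them. Setd2 was at 452 and 174 CPM, a ratio of 0.385 (counting interval 0.376 to 0.394). The 5 stem cell markers were all high, with summed levels of 2177 and 2019 CPM. Of these, 4 were lower in the knockout library and 1, Nanog, was higher, at 221 and 310 CPM. Markers of 2 other cell types were lower in the knockout library: 9 of 10 fibroblast genes, standing for feeder cells, at 184 against 144 CPM in sum, with Lum listed at 0 in the knockout library, and 8 of 8 primitive endoderm genes at 121 against 32.1 CPM, with none at 0. The 3 Y-linked markers summed to 0.817 CPM (wild type) and 309 CPM (knockout), a difference between the cells besides Setd2. The part of these differences in the values below was not tested. In RNA pooled from many cells, fewer cells of a type and less RNA per cell cannot be told apart.

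As a whole the solute carriers differed little between the libraries. They took 1.06% of all read equivalents in the wild-type and 1.07% in the knockout library. Of the 240 genes, 165 averaged 1 CPM or more and were compared, and 3 and 4 of these did so only because of the knockout or of the wild-type value. Folds are the log2 ratio of knockout to wild-type CPM after adding 0.5 to each, which understates the difference of low genes. The members' median fold was 0.04 with quartiles of -0.25 and 0.31, against 0.05 with quartiles of -0.20 and 0.28 over all 13523 genes compared. Of the members 91 were above 0 and 74 below, and 81 and 84 after rescaling to a median log2 ratio of 0. At the level of 2-fold, 3 members were higher in the knockout library (1.82%, against 1.76% of all genes) and 0 were lower (against 2.11% of all genes), so 162 of 165 lay within 2-fold. The lowest fold was -0.91 and the highest 1.28.

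At the smaller level of 1.5-fold, 22 members were higher (13.3%, against 7.42% of all genes) and 13 lower (7.88%, against 6.77%). Low genes vary more than high ones in such a comparison. Among genes of 5 to 20 CPM, 17.6% of 51 members and 9.23% of all genes were at least 1.5-fold higher, and among genes of 1 to 5 CPM 19.1% of 47 members and 15.99% of all genes. Genes outside the naming rule that are named below were chosen after their values were seen, most of them because they passed 1.5-fold.

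**Figure D1:**
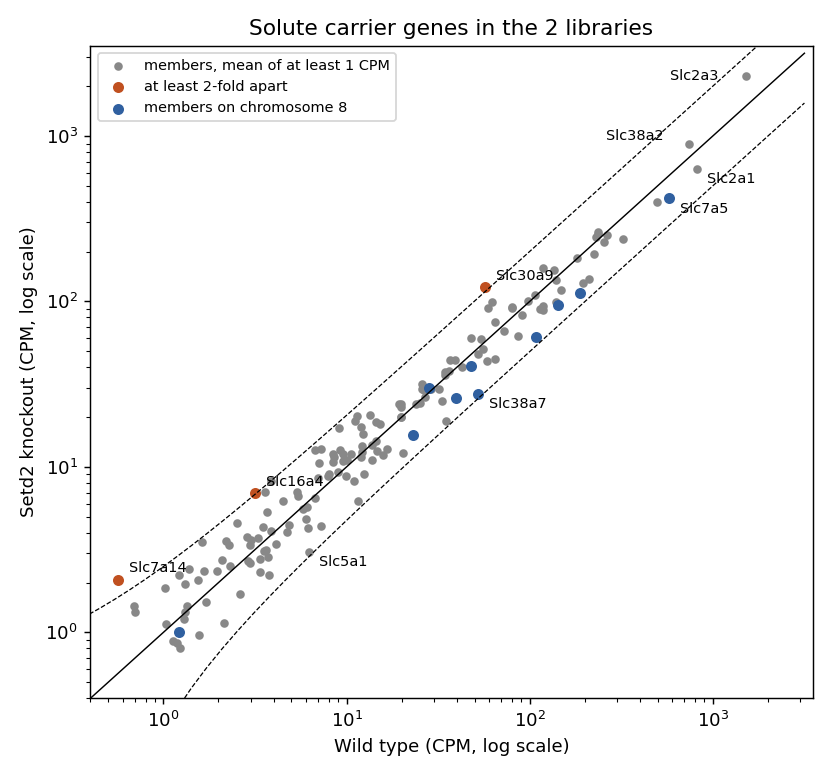
Each point is 1 of the 165 solute carrier genes compared, with its wild-type level on the x axis and its Setd2 knockout level on the y axis, both in CPM on log scales. The solid line marks equal levels and the dashed lines 2-fold on the scale with 0.5 CPM added. The 3 orange genes lie above the upper dashed line, no gene lies below the lower one, and 9 of 10 blue genes on chromosome 8 had folds below 0.

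The 3 genes at least 2-fold higher belonged to 3 different families. Slc30a9 (gene number 109108, chromosome 5, 67698196 to 67747384, mm9), a member of the zinc transporter family, was at 57.2 CPM (wild type) and 122 CPM (knockout). Its ratio was 2.13 (95% counting interval 2.04 to 2.22). Here and below the interval is an exact conditional binomial one on rounded read equivalents. It covers counting error only, since each genotype had 1 library. Copies of 1 molecule could not be told apart, so even that error may be understated. Slc16a4 (chromosome 3, 107094210 to 107115033), of the monocarboxylate transporter family, was at 3.17 and 6.91 CPM, 2.18-fold apart (1.82 to 2.63). Slc7a14 (chromosome 3, 31101778 to 31209241), a lysosomal member of the cationic amino acid transporter family, was at 0.567 and 2.09 CPM, from 31.8 and 109 read equivalents. That ratio was 3.68 (2.46 to 5.63), and without its knockout value Slc7a14 would have stayed under the floor of 1 CPM. Slc30a9 alone of the 3 was abundant in both libraries. Slc16a4 was under 2-fold after each of the 3 rescalings, with folds of 0.96, 0.96 and 0.98, and at 0.92 with a pseudocount of 1 CPM. Slc7a14 was at 0.98 with that pseudocount, and a floor of 5 CPM left it out.

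These 3 genes are also the ones whose promoters are shown, since they stand furthest from the others. Each sequence runs 5′ to 3′ from 250 bases before to 50 bases after the gene's start in RefSeq on GRCm38.p6, a later build than that of the table, and capitals mark every CpG, the dinucleotide that DNA methylation acts on. The Slc30a9 window is chr5:67306705-67307004 on the plus strand, that of Slc16a4 chr3:107290980-107291279 on the plus strand and that of Slc7a14 chr3:31310270-31310569 on the minus strand.
Slc30a9: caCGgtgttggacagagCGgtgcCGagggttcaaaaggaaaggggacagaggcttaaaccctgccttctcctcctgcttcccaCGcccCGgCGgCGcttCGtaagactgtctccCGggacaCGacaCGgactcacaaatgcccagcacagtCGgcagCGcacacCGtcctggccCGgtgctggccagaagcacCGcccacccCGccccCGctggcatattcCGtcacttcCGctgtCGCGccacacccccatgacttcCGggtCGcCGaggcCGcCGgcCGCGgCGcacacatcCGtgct
Slc16a4: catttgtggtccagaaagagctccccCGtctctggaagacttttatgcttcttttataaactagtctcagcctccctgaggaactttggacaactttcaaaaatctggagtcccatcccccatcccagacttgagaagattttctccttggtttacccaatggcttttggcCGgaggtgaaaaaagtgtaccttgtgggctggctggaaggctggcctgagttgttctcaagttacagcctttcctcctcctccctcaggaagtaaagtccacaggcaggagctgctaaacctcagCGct
Slc7a14: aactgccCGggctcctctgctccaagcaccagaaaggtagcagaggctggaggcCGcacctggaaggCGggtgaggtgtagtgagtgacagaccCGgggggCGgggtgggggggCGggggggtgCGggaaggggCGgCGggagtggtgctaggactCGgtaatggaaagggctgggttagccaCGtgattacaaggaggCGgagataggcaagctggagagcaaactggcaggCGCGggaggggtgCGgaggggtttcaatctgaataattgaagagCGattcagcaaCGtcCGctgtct

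The 3 promoters differ in composition. The Slc30a9 window holds 31 CpG, a ratio of observed to expected CpG of 0.938, and the Slc7a14 window 18, a ratio of 0.705. The Slc16a4 window holds 3, a ratio of 0.166. Of all 32851 promoter windows of that length in the table, 35.8% have a ratio of at least 0.6, so the windows of Slc30a9 and Slc7a14 are CpG-rich and that of Slc16a4 is not. RefSeq promoters were found for 182 of the 240 members (75.8%), too few to describe the members' promoters as a group.

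Some genes stood next to the 2-fold level. Slc1a1, a glutamate and cysteine carrier, was at 3.88 and 8.21 CPM with a fold of 0.99, just inside it, and the choline transporter-like gene Slc44a3 at 1.62 and 3.51 CPM with 0.92. Lowest was the sodium-glucose cotransporter Slc5a1, at 6.21 and 3.07 CPM with a fold of -0.91. Without a pseudocount, Slc1a1, Slc44a3 and Slc6a14 had ratios of 2.12, 2.17 and 2.08 and Slc5a1 one of 0.495. By that ratio 6 members were at least 2-fold higher and 1 at least 2-fold lower, against 2.68% and 2.57% of all genes.

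Levels of different genes were compared per kilobase of exon, with all annotated exons of a gene joined. The length of the transcripts present in these cells was not measured, so the order of genes depends on that choice. A few carriers held most of the solute carrier transcripts: the 12 highest of 239 genes with a gene model took 57.5% of the members' summed CPM per kb in the wild-type and 56.8% in the knockout library. Highest were the glucose transporters Slc2a1 and Slc2a3, followed by the amino acid carriers Slc38a2, Slc7a5, Slc38a4 and Slc3a2. The nucleoside carrier Slc29a1, the lactate carrier Slc16a1, the amino acid carrier Slc7a7, the phosphate carriers Slc20a1 and Slc20a2 and the taurine carrier Slc6a6 made up the rest. Of these 12, 3 were higher in the knockout library (Slc2a3, Slc38a2 and Slc20a1) and 9 lower. Abundant members in general, which include these 12, leaned the same way. Of the 26 with a mean of at least 100 CPM, 17 had a fold below 0 (19 under each rescaling) and the median was -0.26, against 0.02 for all genes at that level. Without chromosome 8 it was -0.17 over 23 members, against 0.04 for all genes. The choice of this level was made after the values were seen.

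**Figure D2:**
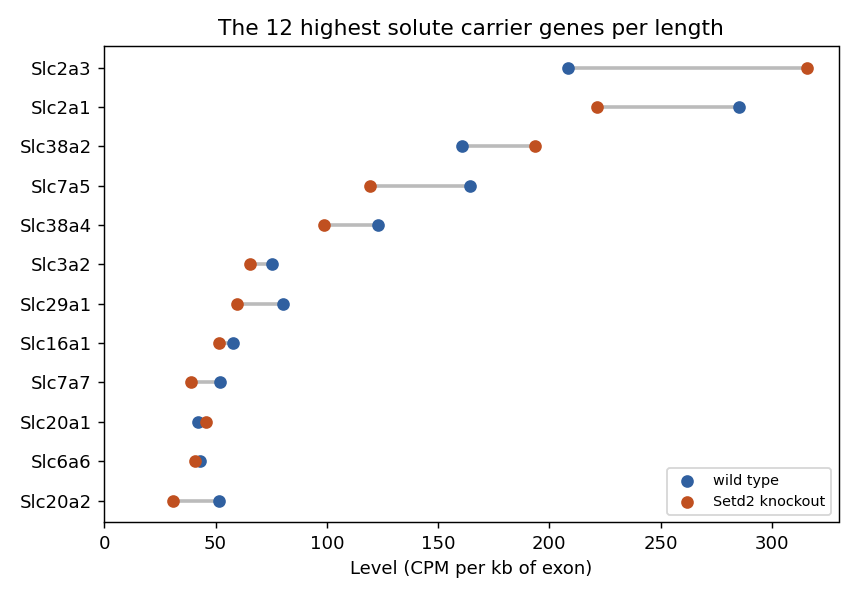
The 12 solute carrier genes with the highest mean level are shown on the y axis, with their level in CPM per kb of exon on the x axis in the wild-type (blue) and Setd2 knockout (orange) library. Slc2a3 moved from 208 to 316 CPM per kb and Slc2a1 from 285 to 221, which reversed the order of the first 2 genes on this scale. In CPM, without division by exon length, Slc2a3 was the higher of the 2 in both libraries.

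By substrate, amino acid carriers held the largest share of the members' summed level, 33.3% in the wild-type and 30.2% in the knockout library. Sugar carriers held 22.4% and 25.1%, and metal carriers 9.70% and 10.6%. Nucleoside carriers went from 4.24% to 3.45% and phosphate carriers from 4.04% to 3.42%. Each of the remaining groups held under 4% in both libraries. A share of a sum is set mostly by the most abundant genes of a group and says little of its low members. Of 28 amino acid carriers compared, 4 lie on chromosome 8, most of whose genes were lower, and 1 of 3 phosphate carriers, Slc20a2, does too. Of those 4, Slc7a5 went from 164 to 120 CPM per kb, and only Slc7a2 was higher in the knockout library. Shares without chromosome 8 were not computed.

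**Figure D3:**
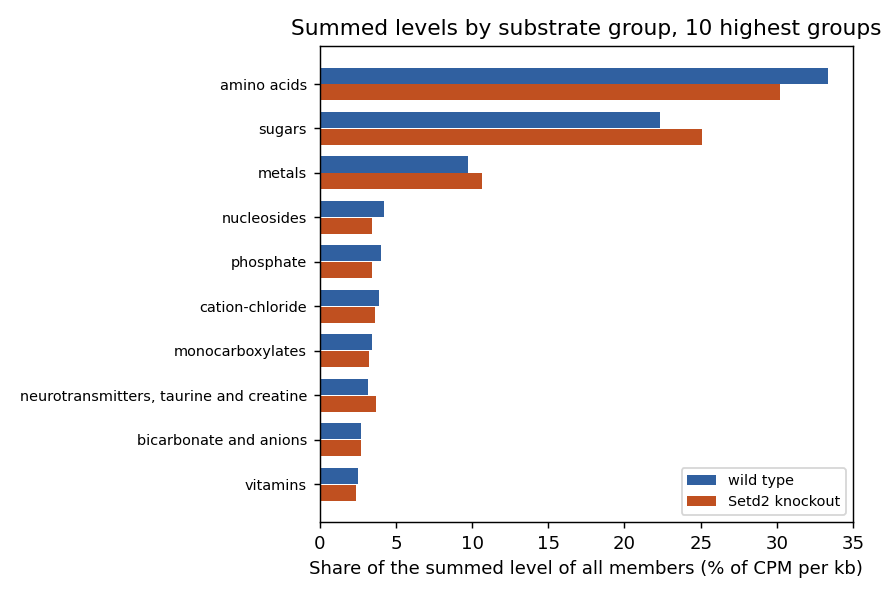
Bars give the share of the summed level of all members, in percent of CPM per kb of exon, for the 10 substrate groups with the largest share in the wild-type library (blue) and in the Setd2 knockout library (orange). Amino acid carriers lead in both libraries, at 33.3% and 30.2%, ahead of sugar carriers, at 22.4% and 25.1%. Genes on chromosome 8, most of which were lower in the knockout library, are included.

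The glucose transporters showed opposite differences in their most abundant genes. Slc2a1 (chromosome 4, 118781350 to 118809934), the widely expressed facilitator, was at 814 CPM (wild type) and 632 CPM (knockout), a ratio of 0.776 (0.765 to 0.787). Slc2a3 (chromosome 6, 122677829 to 122692763), the high-affinity facilitator, was at 1509 and 2288 CPM, a ratio of 1.52 (1.503 to 1.530). Per kb of exon Slc2a3 stood at 0.730 of the Slc2a1 level in the wild-type library and at 1.43 of it in the knockout library. This order rests on joined exon lengths of 7245 bases for Slc2a3 and 2853 for Slc2a1, since by CPM Slc2a3 was higher in both libraries. The sum of both per kb was 494 and 537, so the total moved less, by a ratio of 1.09, than either gene. Of 7 Slc2 genes compared, 5 were above 0 and 2 below. Slc2a12 was at 0.704 and 1.32 CPM, Slc2a8 at 8.51 and 11.4 CPM and the insulin-responsive Slc2a4 at 2.09 and 2.74 CPM, while Slc2a7 was at 1.19 and 0.865 CPM. Among sodium-coupled Slc5 carriers, 3 of 7 passed the floor. Besides Slc5a1, the inositol carrier Slc5a11 was at 11.03 and 8.20 CPM. Of the 4 sugar phosphate carriers, Slc37a3 stood apart, at 62.5 and 99.3 CPM (ratio 1.59, 1.52 to 1.66).

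Amino acid carriers of the Slc7 family were mostly lower in the knockout library. Of 9 compared, 6 were below 0 and 3 above, with a median fold of -0.42, and the summed level per kb had a ratio of 0.715. Light chains of the heterodimeric carriers made up much of this. Slc7a5, which imports leucine and other large neutral amino acids, was at 578 and 420 CPM (ratio 0.727, 0.714 to 0.739). Slc7a6 was at 108 and 61.1 CPM (0.566, 0.542 to 0.591) and Slc7a7 at 118 and 88.4 CPM (0.747, 0.719 to 0.775), whereas Slc7a8 was higher, at 5.37 and 7.07 CPM. The heavy chain that joins them, Slc3a2, was at 223 and 193 CPM, a smaller difference (0.866, 0.844 to 0.890). Both cationic amino acid carriers with high levels were lower: Slc7a1 was at 195 and 130 CPM (0.665, 0.645 to 0.685) and Slc7a3 at 140 and 99.8 CPM (0.715, 0.690 to 0.741). Slc7a11, the cystine-glutamate exchanger, did not reach the floor, at 1.14 and 0.479 CPM. Slc7a2, Slc7a5 and Slc7a6 lie on chromosome 8, most of whose genes were lower, and without them the family median was -0.35.

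The sodium-coupled Slc38 family was split. Slc38a2, which imports glutamine and alanine and is induced by amino acid shortage, was at 744 and 895 CPM (1.20, 1.19 to 1.22). Slc38a4 was at 497 and 398 CPM (0.802, 0.788 to 0.817) and Slc38a10 at 148 and 117 CPM. Among the lowest folds of all members were those of Slc38a7, a lysosomal glutamine exporter on chromosome 8, at 52.04 and 27.7 CPM (0.532, 0.4996 to 0.567), and of Slc38a3 on chromosome 9, at 34.9 and 18.8 CPM (0.539, 0.499 to 0.583). Slc38a6 was at 4.51 and 6.22 CPM, with 55% of its sampled windows shared with other places in the genome, so its level is uncertain. Of 7 compared, 4 were below 0 and 3 above, with a median of -0.32, or -0.08 without chromosome 8. Slc38a1 was not analysed here.

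Slc1 carriers of glutamate and neutral amino acids were higher as far as they were compared. All 5 over the floor had folds above 0, from 0.07 to 0.99, with a median of 0.20, and remained above 0 under each rescaling tried. Slc1a5, the main glutamine carrier of many dividing cells, was at 135 and 156 CPM (1.15, 1.11 to 1.19). Slc1a3 was at 36.2 and 37.9 CPM, with an interval of 0.986 to 1.12 that holds 1. Slc1a6 was at 1.38 and 2.41 CPM. The Slc43 family, grouped here with the amino acid carriers, had a median of 0.28 over 3 genes.

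Zinc exporters of the Slc30 family leaned to higher levels, while zinc importers of the Slc39 family were spread around 0. All 8 Slc30 genes passed the floor. Of these, 7 were above 0 and 1 below, and 6 and 2 under each of the 3 rescalings, since Slc30a1 turned. The median was 0.29. After Slc30a9 came Slc30a4, at 13.5 and 20.5 CPM, and Slc30a2, at 3.68 and 5.38 CPM. Slc30a5, a zinc supplier of the secretory pathway, was at 80.4 and 91.5 CPM (1.14, 1.09 to 1.19). The plasma membrane exporter Slc30a1 was level, at 29.1 and 29.7 CPM, with an interval of 0.952 to 1.10, and Slc30a10 was at 2.90 and 2.70 CPM. Without Slc30a9 the differences in this family were all under 2-fold.

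Of the 11 Slc39 genes compared, 5 were above 0 and 6 below, with a median of -0.02, or 0.03 with no floor. Slc39a14, which imports zinc, iron and manganese, was at 210 and 136 CPM (0.646, 0.627 to 0.666), and the zinc importer Slc39a4 at 20.3 and 12.1 CPM (0.597, 0.540 to 0.658). Slc39a8 was at 2.28 and 3.37 CPM. The most abundant importer, Slc39a10, was at 232 and 246 CPM (1.06, 1.03 to 1.09), with 25% of its windows shared with other places. Reads of Slc39a1 (75% of windows shared) and Slc39a7 (80.1% of exon bases within another gene model on the same strand) are uncertain as well. Of the other metal carriers, the copper importer Slc31a1 was at 58.8 and 91.6 CPM (1.56, 1.49 to 1.63) and the iron exporter Slc40a1 at 7.23 and 12.9 CPM (1.78, 1.57 to 2.02). The iron importer Slc11a2 was at 72.6 and 66.0 CPM.

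The monocarboxylate carriers held high and low folds side by side. Slc16a1, which moves lactate and pyruvate, was at 256 and 227 CPM (0.889, 0.867 to 0.911), and the lactate exporter Slc16a3 at 58.3 and 43.6 CPM (0.747, 0.708 to 0.788). For Slc16a3 15.6% of exon bases overlap Csnk1d on the opposite strand, and the sources used here do not say if counting used strand. Higher were Slc16a4 (above) and the aromatic amino acid carrier Slc16a10, at 7.07 and 10.6 CPM. Slc16a14 was at 2.63 and 1.71 CPM. Over 9 genes the median was -0.17, with 4 above 0 and 5 below, or 3 and 6 under the rescalings, and with a floor of 5 CPM the median turned to 0.19.

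Bicarbonate and other anion carriers were mostly lower. Of 7 Slc4 genes compared 5 were below 0, with a median of -0.41 and none of them on chromosome 8. The anion exchangers Slc4a3, at 11.5 and 6.22 CPM (0.541, 0.473 to 0.620), Slc4a1, at 2.14 and 1.13 CPM, and Slc4a2, at 33.3 and 24.9 CPM, were all lower. The most abundant gene of the family, the sodium-bicarbonate cotransporter Slc4a7, was higher, at 235 and 263 CPM (1.12, 1.09 to 1.15), so that the summed level per kb had a ratio of 1.02. The sulphate carrier Slc26a2 was at 86.7 and 61.5 CPM (0.710, 0.679 to 0.742).

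Cation carriers differed less as families. Among sodium-proton exchangers, Slc9a5 on chromosome 8 was at 39.5 and 26.04 CPM and the organelle exchanger Slc9a7 at 2.52 and 4.56 CPM. The Slc9 median was 0.01 over 5 genes between -0.04 and -0.02 under the rescalings and -0.05 with a floor of 5 CPM. Among cation-chloride carriers, Slc12a2 was at 107 and 109 CPM with an interval of 0.983 to 1.06, and its fold of 0.03 turned to below 0 under the rescalings. Slc12a4 on chromosome 8 was at 142 and 95.2 CPM (0.669, 0.645 to 0.693) and Slc12a8 at 3.49 and 4.32 CPM. The Slc12 median was 0.02 over 7 genes, 4 of them above 0, and between -0.03 and -0.01 under the rescalings, with 2 above 0.

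The Slc6 family, which carries neurotransmitters, amino acids, taurine and creatine, had the highest median of the 13 families with at least 5 genes compared. It was 0.42 over 7 genes, with 5 above 0 and 2 below. Slc6a8, whose fold is this median, and Slc6a14 lie on chromosome X, where all genes compared had a median of 0.17. Slc6a14 passed the floor only through its knockout value and Slc6a7 only through its wild-type value. The creatine carrier Slc6a8 was at 118 and 158 CPM (1.34, 1.30 to 1.39) and the neutral amino acid carrier Slc6a15 at 11.1 and 18.9 CPM (1.69, 1.53 to 1.87). The most abundant member, the taurine carrier Slc6a6, was at 265 and 251 CPM (0.945, 0.923 to 0.968), and the proline carrier Slc6a7 at 1.12 and 0.886 CPM. Of the 4 Slc17 and Slc18 carriers over the floor, which act in vesicles and lysosomes, 3 were above 0 and 1 below. The sialic acid exporter Slc17a5 was at 9.06 and 17.2 CPM (1.90, 1.70 to 2.12) and the vesicular monoamine carrier Slc18a2 at 3.59 and 7.01 CPM (1.95, 1.64 to 2.34), while Slc18a1 on chromosome 8 was at 1.22 and 1.01 CPM. The peptide carriers differed from each other: Slc15a2 was at 6.77 and 12.7 CPM (1.87, 1.65 to 2.13) and Slc15a1 at 6.17 and 4.25 CPM (0.689, 0.579 to 0.818).

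**Figure D4:**
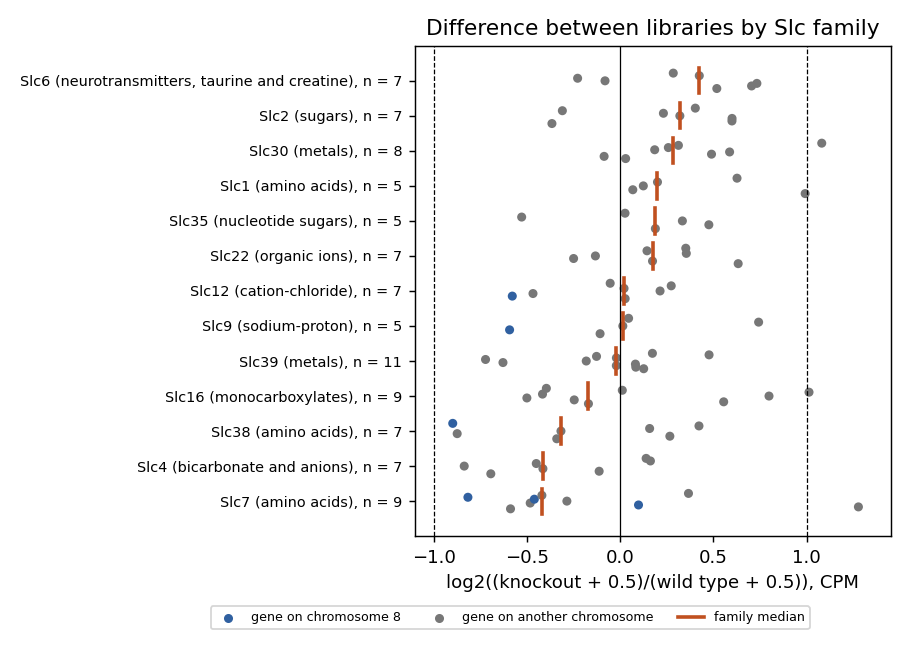
Each point is 1 gene, with its fold on the x axis as log2 of knockout over wild type with 0.5 CPM added, for the 13 families on the y axis with at least 5 genes compared. Orange bars mark family medians and blue points genes on chromosome 8. Medians run from -0.42 for Slc7 to 0.42 for Slc6, and the genes of most families lie on both sides of 0.

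Nucleoside and phosphate carriers had lower summed levels. The equilibrative nucleoside carrier Slc29a1 was at 323 and 239 CPM (0.742, 0.725 to 0.759). The concentrative carrier Slc28a1 was at 7.25 and 4.41 CPM, whereas Slc28a3 was at 1.22 and 2.22 CPM. The sodium-phosphate carriers differed from each other: Slc20a1 was at 235 and 255 CPM (1.08, 1.06 to 1.11) and Slc20a2, on chromosome 8, at 188 and 113 CPM (0.5995, 0.581 to 0.619). Per kb of exon Slc20a2 stood at 1.22 of the Slc20a1 level in wild-type and at 0.677 of it in knockout cells, whereas by CPM Slc20a1 was the higher gene in both.

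Carriers of vitamins, organic ions, nucleotide sugars and choline had members on both sides of 0, with medians of -0.08, 0.17, 0.19 and 0.24. The folate carriers Slc19a1 and Slc46a1 were at 16.6 and 12.8 CPM (0.772, 0.698 to 0.853) and at 4.87 and 4.48 CPM (0.920, 0.770 to 1.10). The thiamine carrier Slc19a2 was at 138 and 134 CPM and the ascorbate carrier Slc23a2 at 118 and 93.7 CPM. Slc22 organic ion carriers were low, with 7 of 14 over the floor and a median of 0.17. Slc22a16 was at 1.02 and 1.86 CPM and Slc22a18 at 3.37 and 2.76 CPM. Among nucleotide sugar carriers the UDP-galactose carrier Slc35a2 was at 8.41 and 11.9 CPM and Slc35a4 at 64.7 and 44.7 CPM, with 35% of the windows of Slc35a4 shared with other places. The choline carriers Slc44a1 and Slc44a2 were at 113 and 89.9 CPM and at 80.5 and 93.1 CPM.

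The chromosome on which a carrier lies went with its fold. Of 10 members on chromosome 8, 9 were below 0, with a median of -0.57, and all 719 genes compared there had a median of -0.35 with quartiles of -0.59 and -0.12. These 10 held 4 of the 13 members at least 1.5-fold lower, Slc38a7, Slc7a6, Slc20a2 and Slc9a5, and of all 719 genes there 25.5% were at least 1.5-fold lower. Only Slc7a2 among them was above 0, at 28.2 and 30.2 CPM. Without chromosome 8, 22 of 155 members were at least 1.5-fold higher (14.2%, against 7.64% of all genes without chromosomes 8 and Y) and 9 at least 1.5-fold lower (5.81%, against 5.73%). On chromosome X the 9 members had a median of 0.42, against 0.17 for its 506 genes compared. The number of copies of these chromosomes in the 2 lines was not tested.

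**Figure D5:**
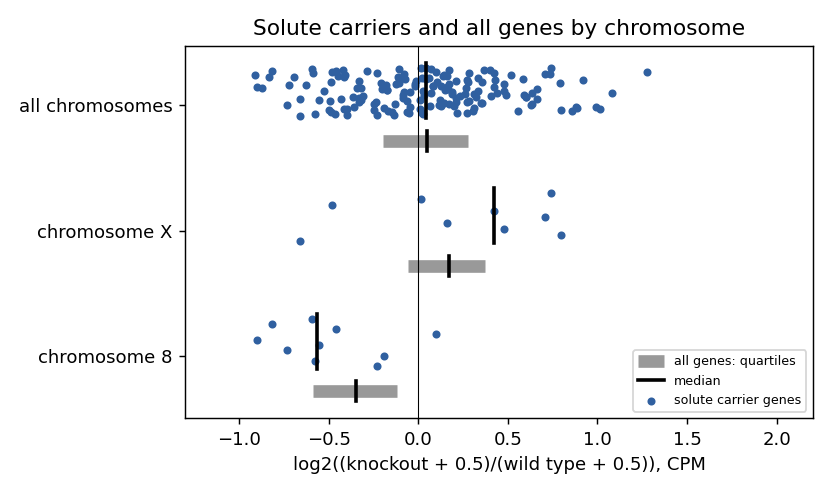
Points are solute carrier genes on chromosome 8, on chromosome X and on all chromosomes, with their fold on the x axis as log2 of knockout over wild type with 0.5 CPM added. Grey bars span the quartiles of all genes compared and black bars mark medians. On chromosome 8 the members' median was -0.57 and that of all genes -0.35.

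Of the 240 genes, 75 stayed under the floor, and 19 of these were under 0.1 CPM in both libraries. Both Slc14 urea carriers were among the 75. Slc34a1, a sodium-phosphate carrier of the kidney, was listed at 0 in both libraries, 7 genes in the wild-type library alone and 7 in the knockout library alone. The highest of these 14 was Slc12a1, a kidney carrier, at 0.160 CPM in the knockout library. A count of 0 allows up to 0.0534 CPM (wild type) and 0.0576 CPM (knockout), that is 3 read equivalents, for counting error only.

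Genes that work with the carriers were read from a list of 54 subunits and regulators, of which 46 had a row and 40 passed the floor. Of these, 2 were at least 2-fold higher (5%, against 1.76% of all genes) and 1 lower (2.5%, against 2.11%). The median fold was 0.15, against 0.05 over all genes, with 25 above 0 and 15 below. Fxyd6, a modulator of the sodium pump, was at 5.79 and 22.7 CPM (3.93, 3.47 to 4.46), and the kinase Stk39, which phosphorylates Slc12 carriers, at 2.79 and 6.57 CPM (2.35, 1.95 to 2.88). The pump subunit Atp1b1 was at 69.2 and 130 CPM (1.88, 1.81 to 1.96). Basigin (Bsg), the chaperone of Slc16a1 and Slc16a3, was at 147 and 175 CPM (1.19, 1.16 to 1.23), and its relative embigin (Emb) at 131 and 213 CPM. Txnip and Arrdc4, arrestins that remove glucose transporters from the cell surface, were at 541 and 1030 CPM (1.90, 1.88 to 1.93) and at 56.4 and 92.7 CPM (1.64, 1.57 to 1.72). A gene on the opposite strand, Gm15441, overlaps part of the exons of Txnip, whose level is uncertain to that extent. Of genes that sense amino acids at the lysosome, Rragc was at 39.9 and 65.9 CPM, Rragd at 40.8 and 63.6 CPM and Rptor at 163 and 105 CPM (0.644, 0.622 to 0.666). Others of this group differed less: Rraga was at 68.3 and 75.3 CPM, Rragb at 28.3 and 32.3 CPM and Mtor at 282 and 256 CPM.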

How the data were processed

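RNA from 1 wild-type and 1 Setd2 knockout library was compared. Reads were handled with TopHat 1.0.13 and CASAVA 1.6.0 on mm9, per the submitters' processing notes, which give neither roles nor an order. The unit is RPKM per the file headers, but the deposited log2 values did not have that scale and were read as log2(x + 1), with x in read equivalents of 76 bases: 85.9% (wild type) and 85.7% (knockout) of values of x above 0 and under 200 were whole bases within 0.05 of a base. Because of this unit, x was turned into CPM over all gene rows. No count model was run. A symbol on several rows took its highest row.

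Genes averaging 1 CPM or more over both libraries were compared, with a pseudocount of 0.5 CPM and a level of 2-fold. Members and gene lists were chosen with earlier results of these data known. The naming rule took members at least 2-fold apart, the 12 highest per kb, the highest and lowest fold of each family with at least 5 genes compared, members at 0 in 1 library with at least 2 CPM in the other (there was none), 22 fixed members (21 with a row), and from the list of subunits and regulators those at least 2-fold apart with Bsg and Atp1b1. Some genes that the rule takes are not reported here. Exon lengths and overlaps came from GENCODE on NCBIM37, the same assembly as mm9. To find reads that could belong elsewhere, 20 exon windows of 76 bases per gene were aligned with minimap2 2.31, and a window counted as shared if another place matched with at most 2 mismatches or its own place was not found. The fold and interval code was tested on simulated libraries. Alternatives were other pseudocounts, floors, levels and scalings, summed rows, no chromosomes 8 and Y, and added suffix symbols; leaving out members with shared windows or exons was added after the data were seen.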

Additional observations from a re-analysis of the deposited data

How the results depend on the processing

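No paired analysis was possible because there is 1 library for each genotype, which also left none to omit. The number of members at least 2-fold higher was 5 with a pseudocount of 0.1 CPM and 1 (Slc30a9) with 1 CPM, against 3 as reported. It was 2 under each of the 3 rescalings, without Slc16a4, and 2 with a floor of 5 CPM, without Slc7a14. At 1.5-fold 22 members were higher and 13 lower, and at 3-fold 0 were higher. The number lower stayed at 0 in the other settings. Among subunits and regulators the number at least 2-fold higher was 1 with a pseudocount of 1 CPM and 1 with a floor of 5 CPM. At 3-fold 1 was higher. At 1.5-fold 8 were higher (20%, against 7.42% of all genes) and 2 lower (5%, against 6.77%). The rescalings moved the fold of a named member by at most 0.05. Of 413 recomputed folds of named genes 407 had the sign reported, and the other 6 were those of Slc12a2 and Slc30a1 under the rescalings. A change of pseudocount or floor cannot turn the sign of a gene's fold, so agreement there was fixed in advance. Only the rescalings were a check of sign. All 117 recomputed family medians moved by less than the spread of the family's genes. The folds of Slc7 genes, for one, ran from -0.82 to 1.28, so this was a weak check. The Slc38 median went from -0.32 to -0.08 without chromosomes 8 and Y. In 4 families the median changed sign. Slc9 and Slc12 turned to below 0 under the rescalings, and Slc9 also with a floor of 5 CPM (-0.05). Slc16 turned to 0.19 with that floor and Slc39 to 0.03 with no floor. The members' median ran from -0.01, with the median log2 ratio of all genes set to 0, to 0.07 without chromosomes 8 and Y. Depth limits the genes near 1 CPM, where a ratio rests on about 50 read equivalents a library. For Slc7a14 it rested on 31.8 (wild type) and 109 (knockout).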
